A study of Mus musculus with 4 samples.

Results

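The genes described here are 8 matrix proteoglycans of the uterus: the small leucine-rich proteoglycans Dcn (decorin), Bgn (biglycan), Aspn (asporin), Lum (lumican), Fmod (fibromodulin), Prelp and Ogn (osteoglycin), and the large proteoglycan Vcan (versican). They were chosen by name from the gene column of the deposited tables, and all 8 of 8 were found among the 23235 genes of each table. RNA was sequenced in 4 libraries from mouse uterus on day 4 after mating to a vasectomized male, which gives pseudopregnancy without embryos. The groups were stroma labelled knockout (strain Msx1 d/d with Msx2 d/d), stroma control (Msx1 f/f with Msx2 f/f), luminal epithelium labelled knockout and luminal epithelium control, each of 1 library captured by laser microdissection. The knockout removes the homeobox genes Msx1 and Msx2 in the uterus from floxed alleles, which the controls carry undeleted. The sources used here do not give the Cre driver or the age of the mice. With 1 mouse described for each genotype, genotype and animal cannot be told apart and no group has a replicate, so labelled knockout and control are compared without a test. Stroma and luminal epithelium are described within each genotype, also without a test.

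Small leucine-rich proteoglycans are secreted proteins whose curved core of leucine-rich repeats binds collagen fibrils and sets their width and spacing. Decorin and biglycan carry chondroitin or dermatan sulfate chains, lumican, fibromodulin and osteoglycin can carry keratan sulfate, and asporin and Prelp are related core proteins that usually carry no such chain. Versican is a large chondroitin sulfate proteoglycan that binds hyaluronan and makes the loose, hydrated matrix around cells. In the uterus these proteins are made mainly by stromal fibroblasts, in a matrix that is rebuilt when the stroma decidualizes.

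Most of these genes lie in clusters that arose by duplication. Dcn (chromosome 10, 96942134 to 96980796, mm9) and Lum (97028135 to 97035337) are 47.3 kb apart and are followed by the related genes Kera and Epyc. Prelp (chromosome 1, 135806882 to 135817978) and Fmod (135934092 to 135944854) are 116 kb apart, with Optc next to Prelp. Ogn and Aspn, with the related Omd and Ecm2, share 1 deposited locus with Cenpp (chromosome 13, 49559428 to 49748100), so the files give no span of their own for them. Vcan lies elsewhere on the same chromosome (89794915 to 89882117), and Bgn lies on chromosome X (70728974 to 70741275).

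RefSeq promoter sequences of build GRCm38.p6 were matched for 6 of the 8 genes, leaving Dcn and Lum. The 250 bases before the start are shown for the cluster neighbours Ogn and Aspn, which had RPKM ratios of 4.54 and 2.00 between labelled knockout and control stroma, and for Vcan and Bgn, which had ratios of 1.21 and 1.10. These were picked after their values were seen. Fmod and Prelp, matched but not shown, had ratios of 2.57 and 1.56. Capitals mark TATAAA, the letters of a TATA box, and CAGAC, letters bound by Smad proteins, on either strand.
Ogn (chr13:49607765-49608014, plus strand): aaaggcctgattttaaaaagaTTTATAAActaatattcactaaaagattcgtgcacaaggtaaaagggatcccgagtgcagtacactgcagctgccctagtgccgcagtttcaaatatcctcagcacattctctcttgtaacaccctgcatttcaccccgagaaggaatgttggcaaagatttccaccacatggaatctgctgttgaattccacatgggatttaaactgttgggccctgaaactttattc
Aspn (chr13:49544193-49544442, plus strand): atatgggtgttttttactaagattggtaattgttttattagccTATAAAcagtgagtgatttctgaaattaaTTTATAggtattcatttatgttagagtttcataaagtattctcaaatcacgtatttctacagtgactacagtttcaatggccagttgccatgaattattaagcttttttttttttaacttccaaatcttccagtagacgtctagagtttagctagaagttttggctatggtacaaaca
Vcan (chr13:89742513-89742762, minus strand): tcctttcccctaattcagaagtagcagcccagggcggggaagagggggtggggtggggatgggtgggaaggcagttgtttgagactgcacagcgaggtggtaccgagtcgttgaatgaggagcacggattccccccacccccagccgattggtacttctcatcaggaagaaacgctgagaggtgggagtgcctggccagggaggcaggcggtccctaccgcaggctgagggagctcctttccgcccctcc
Bgn (chrX:73483351-73483600, plus strand): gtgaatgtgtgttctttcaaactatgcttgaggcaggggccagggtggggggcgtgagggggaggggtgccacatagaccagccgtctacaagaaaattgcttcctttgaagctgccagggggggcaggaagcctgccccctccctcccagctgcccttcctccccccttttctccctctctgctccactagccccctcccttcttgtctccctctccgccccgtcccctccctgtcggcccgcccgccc
The letters TATAAA were found in Ogn, where matches on both strands overlap at 229 and 227 bases before the start, and in Aspn, at 207 and 178 bases before it, and in none of the 4 other promoters matched. They occur in 12.4% of all 32851 promoter windows of this length. CAGAC was found in Fmod and Prelp, against 42.2% of all windows, and CANNTG, the letters of an E-box, in 5 of the 6, against 66.2%. The G and C content was 42.0% for Ogn, 30.0% for Aspn, 51.2% for Fmod and 55.6% for Prelp. It was 62.4% for Vcan and 64.4% for Bgn, against a median of 52.4% over all windows. These matches describe letters and are neither sites nor causes.

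Levels are in RPKM, reads scaled by transcript length and by mapped reads, so levels of different genes within a library can be set side by side. From the steps of the low values, the estimated depth was 62500000 reads in stroma labelled knockout, 42700000 in stroma control, 91900000 in luminal epithelium labelled knockout and 6270000 in luminal epithelium control. The last library was 14.7 times shallower than its partner, and many proteoglycan values there rest on a handful of reads. Beside each ratio stand its 95% limits, computed from the estimated reads by the exact Clopper-Pearson method. Such limits hold counting error alone and no variation from mouse to mouse. As a check of the labels, Msx1 was at 13.6 RPKM in luminal epithelium labelled knockout and 23.2 RPKM in control, and Msx2 at 2.06 and 1.31 RPKM. The direction for Msx2 goes against the label. Its control value rests on 18 reads, and the ratio of 1.58 has limits of 1.01 and 2.76. In stroma Msx1 and Msx2 were at or below 0.135 RPKM in either library. The deleted exons were not stated, so remaining reads check nothing, and the libraries are called labelled knockout throughout. The captures had their defining markers: epithelial markers summed to 542 RPKM in luminal epithelium labelled knockout and 476 RPKM in control, but to 0.582 and 1.90 RPKM in the matching stroma libraries.

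**Figure D1:**
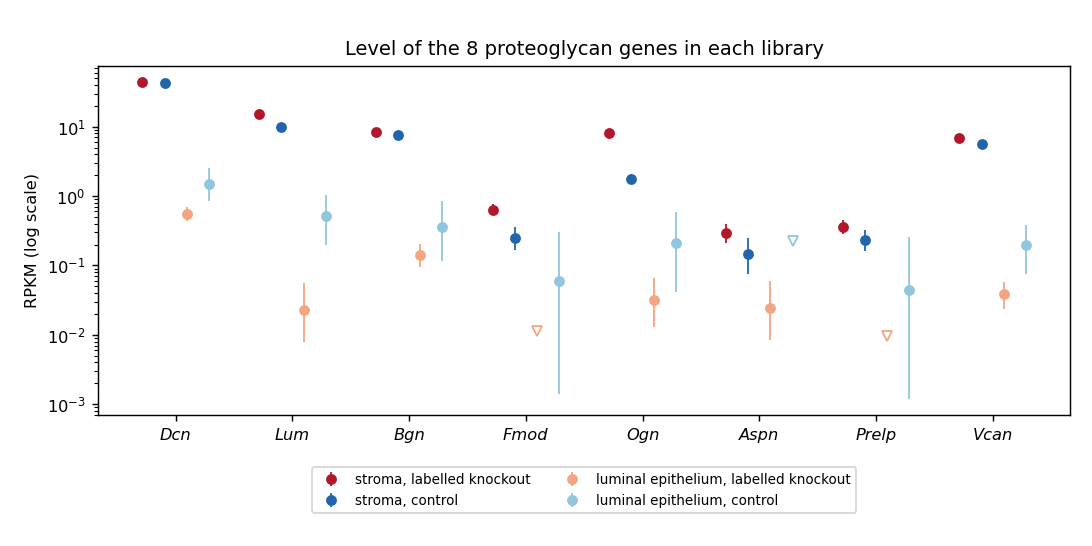
RPKM of the 8 proteoglycan genes in the 4 libraries on a log axis; points are single libraries, bars are 95% counting limits and open triangles mark the level of 3 reads for a gene listed at 0. Stroma points lie above luminal epithelium points of the same genotype for every gene measured above 0 in both, and Ogn shows the widest gap between the stroma libraries.

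Decorin was the most abundant of the 8 in every library. Dcn was at 43.6 RPKM in stroma labelled knockout and 42.7 RPKM in stroma control, where it ranked 188 and 199 among all genes of the table. In stroma labelled knockout Lum followed at 15.5 RPKM, then Bgn at 8.50, Ogn at 8.10 and Vcan at 6.89 RPKM. In stroma control the order was Lum at 9.87, Bgn at 7.71, Vcan at 5.71 and Ogn at 1.78 RPKM. Thus Ogn stood ahead of Vcan in the labelled knockout and behind it in the control. Counting intervals of Bgn and Ogn overlapped in the labelled knockout, while those of the other neighbours among these 5 genes did not overlap in either stroma library.

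Fmod, Prelp and Aspn were scarce in both stroma libraries. Fmod, which binds collagen at a site distinct from decorin and slows fibril growth, was at 0.635 RPKM in labelled knockout and 0.248 RPKM in control. Prelp, which anchors collagen to basement membranes, was at 0.363 and 0.233 RPKM, and Aspn, which binds collagen and TGF-beta, at 0.290 and 0.145 RPKM. All 3 stayed under the minimum mean of 1 RPKM used to count differences. Their intervals overlapped in the control between neighbours in that order.

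In stroma, the labelled knockout was set against the control first. Ogn, which in other tissues regulates collagen fibrils and bone formation, was the gene of the 8 with the largest RPKM ratio, followed by Fmod, Aspn, Lum and Prelp, then Vcan and Bgn, with Dcn near equal. With 1 RPKM added, which shrinks low genes, the log2 differences ran from 1.71 for Ogn through 0.60 for Lum, 0.39 for Fmod, 0.23 for Vcan, 0.17 for Aspn, 0.14 for Prelp and 0.12 for Bgn to 0.03 for Dcn. All 8 genes had the higher RPKM in the labelled knockout, against 55.3% of all genes above 0 in either library. For 7 of the 8 the counting limits of the ratio left out 1, against 19.8% of genes on that side. Under each of 3 other scalings of the libraries Dcn turned lower, with ratios of 0.949 to 0.972, leaving 7 higher. Under those scalings the limits still left out 1 for Lum, Fmod, Ogn and Vcan, but no longer for Bgn and Prelp, and for Aspn under 1 of the 3, so that 4 or 5 of the 8 remained.

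Ogn stood at 8.10 RPKM in the labelled knockout, from an estimated 1198 reads, and 1.78 RPKM in the control, from 180 reads. The ratio was 4.54 between counting limits of 3.88 and 5.34, and the log2 difference with a pseudocount of 1 RPKM was 1.71. Of the 5 proteoglycan genes whose pair mean reached 1 RPKM, Ogn alone was at least 2-fold higher on that scale and none was at least 2-fold lower, against 1.45% and 1.59% of 7723 genes kept. Among 7040 kept genes left after small RNA and unnamed models were removed, 10 had a larger positive difference than Ogn. The authors marked only 5 of the 12239 genes they tested in stroma as significant. In the authors' deposited table Ogn had a p-value of 0.0962 and a q-value of 0.499, and none of the 8 was marked significant there in stroma.

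The cluster neighbours of Ogn did not all differ alike. Omd, osteomodulin, was at 0.938 RPKM in the labelled knockout and 0.384 RPKM in the control, and the limits of its ratio of 2.44 were 1.63 and 3.64. Aspn had a ratio of 2.00 with limits of 1.07 and 4.18 on 39 and 13 reads. Ecm2, an extracellular matrix protein at the edge of the cluster, was at 0.709 and 0.614 RPKM, and its limits of 0.879 and 1.51 reach 1. Cenpp, a centromere protein gene that spans the cluster on the opposite strand in the GENCODE annotation, was at 0.831 RPKM in the labelled knockout and 0.821 RPKM in the control. The library kit marked strand, but whether reads were counted by strand is not stated, so reads of Cenpp and of the genes within it cannot be told apart.

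The pair Dcn and Lum, also neighbours, differed from each other. Lum, which keeps collagen fibrils thin and evenly spaced, had a ratio of 1.57 with limits of 1.45 and 1.69, from 2174 reads in the labelled knockout and 947 in the control. Dcn, which binds collagen and growth factors such as TGF-beta, had a ratio of 1.02 with limits of 0.974 and 1.07, from 4250 and 2840 reads. The interval for Dcn thus reaches 1 and that for Lum does not, and the intervals do not overlap. In the cluster on chromosome 1, Fmod had a ratio of 2.57 between limits of 1.71 and 3.93 and Prelp one of 1.56 between 1.02 and 2.39. Those intervals overlap.

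Bgn, the closest relative of decorin, had a ratio of 1.10 with limits of 1.003 and 1.21 from 1178 reads in the labelled knockout and 730 in the control. Vcan had a ratio of 1.21 with limits of 1.13 and 1.29. Its estimate of 2587 and 1464 reads used the mean length of 5 RefSeq transcripts. Differences of this size lay within the bulk of kept genes, of which 61.6% had a lower log2 difference than Bgn and 80.9% a lower one than Vcan. For Lum that share was 97.3%, and for Dcn 41.5%.

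**Figure D2:**
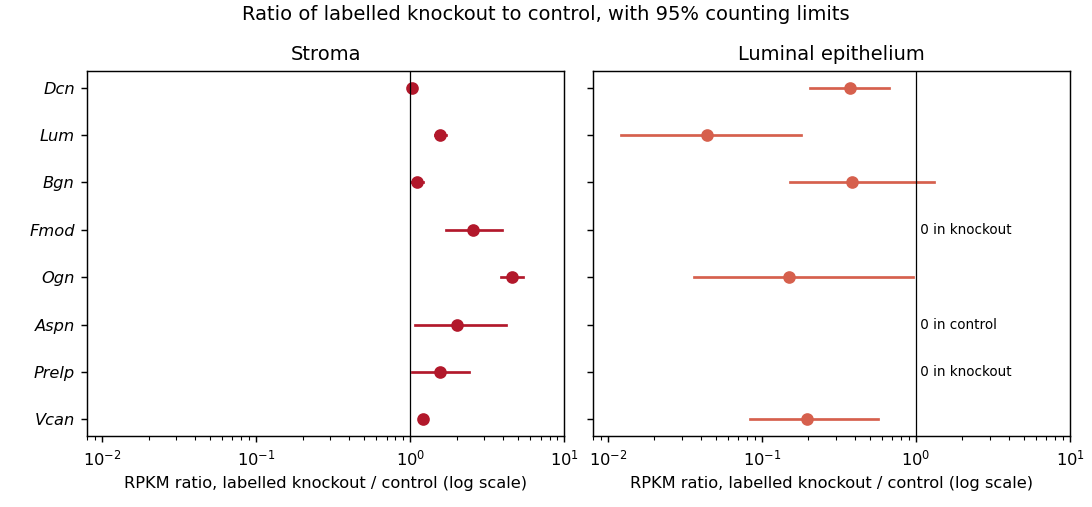
RPKM ratio of labelled knockout to control for each gene in stroma (left) and luminal epithelium (right), with 95% counting limits as bars on a log axis and a line at equal levels; genes listed at 0 in 1 library carry a note in place of a ratio. In stroma the points run from 1.02 for Dcn to 4.54 for Ogn, and in luminal epithelium the 5 ratios run from 0.0441 for Lum to 0.384 for Bgn.

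The make-up of the set differed between the stroma libraries. The summed level of the 8 genes was 83.9 RPKM in the labelled knockout and 68.4 RPKM in the control, a ratio of 1.23. Without Dcn it was 40.2 and 25.7 RPKM, a ratio of 1.57. Dcn made up 52.0% of the sum in the labelled knockout and 62.4% in the control, Lum 18.4% and 14.4%, and Ogn 9.66% and 2.60%. Bgn took 10.1% and 11.3% and Vcan 8.21% and 8.35%. The share of Dcn was therefore smaller and those of Lum and Ogn larger in the labelled knockout, with Bgn and Vcan close to level.

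**Figure D3:**
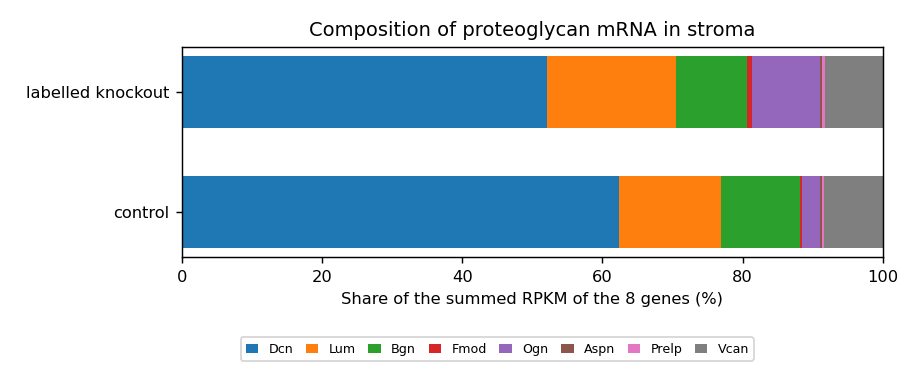
Share of each gene in the summed RPKM of the 8 proteoglycan genes, in percent, for stroma labelled knockout (upper bar) and stroma control (lower bar). Dcn spans 52.0% of the upper and 62.4% of the lower bar, and Ogn 9.66% and 2.60%.

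Collagen I, which these proteins bind, was higher in the labelled knockout as well. Of 10 kept genes of collagens and their processing enzymes, 2 were at least 2-fold higher and none at least 2-fold lower. The shares over all kept genes were 1.45% and 1.59%. The median log2 difference of the 10 was 0.37, against 0.07 over all kept genes. The 2 were Col1a1 and Col1a2, both chains of collagen I. The others ran from Pcolce, an enhancer of collagen processing, with a ratio of 0.889, to Col5a1 with 1.78. Col1a1, a chain of collagen I, was at 83.7 RPKM in the labelled knockout and 32.9 RPKM in the control, Col1a2 at 101.7 and 45.9 RPKM, and Col5a1, a chain of the collagen V that starts fibrils, at 12.9 and 7.23 RPKM. The level of Dcn for each unit of Col1a1 was 0.522 in the labelled knockout and 1.30 in the control, while that of Ogn was 0.0969 and 0.0541. Relative to Col1a1, Dcn was thus lower and Ogn higher in the labelled knockout.

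Marker genes of several cell types also differed between the stroma libraries, and not all in the same direction. Stromal markers, among them Col1a1, Col1a2, Col3a1 and Col5a1, summed to 826 RPKM in the labelled knockout and 507 RPKM in the control. Of these 20 genes, 16 were above 0 in log2 difference and 6 were at least 2-fold higher, against 1.45% of all kept genes. Leukocyte markers summed to 85.6 and 195.8 RPKM, and all 13 kept of 14 in the table were lower. Of these 13 genes, 4 were at least 2-fold lower, against 1.59% of all kept genes. Smooth muscle markers summed to 34.2 and 27.6 RPKM and endothelial markers to 45.0 and 48.6 RPKM, with no gene of the leukocyte, smooth muscle or endothelial lists at 0. Glandular markers summed to 0.221 RPKM in the labelled knockout and 0.547 RPKM in the control, luminal epithelial markers to 0.112 and 0.135 RPKM and mesothelial markers to 0.210 and 0.330 RPKM. Among the genes at 0 were Foxa2, Spink3, Prss29, Wnt7a, Areg and Krt14 in the labelled knockout and Prss29, Lif, Wnt7a, Ihh, Areg, Msln, Upk3b, Krt14 and Krt7 in the control. The part of such shifts in the proteoglycan differences was not tested, and in captured tissue fewer cells of a type and less RNA per cell cannot be told apart.

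Other proteoglycans and secreted matrix proteins were set beside the 8. Among 9 further surface or secreted ones, 5 were kept and 2 were at least 2-fold higher in stroma labelled knockout, against 1.45% of all kept genes. The median of the 5 was 0.33. Smoc2, a secreted calcium-binding protein of the matrix, was at 6.77 RPKM in the labelled knockout and 2.10 RPKM in the control. Srgn, serglycin, a proteoglycan of blood cell granules and endothelium, was at 32.8 and 15.7 RPKM, beside leukocyte marker sums of 85.6 and 195.8 RPKM. Cspg4, the pericyte proteoglycan NG2, was at 1.78 and 1.22 RPKM. Of 16 heparan sulfate proteoglycans 11 were kept, none at least 2-fold apart, with a median of -0.06. The syndecan genes Sdc1, at 5.49 RPKM in the labelled knockout and 3.14 RPKM in the control, and Sdc4, at 5.18 and 3.13 RPKM, were higher, and Sdc3 was lower, at 1.39 and 1.84 RPKM.

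Of the leucine-rich family, a further 12 genes were listed, and only Tsku, tsukushi, which binds growth factors, was kept in stroma, at 1.38 RPKM in the labelled knockout and 1.22 RPKM in the control. Of the cluster neighbours in that list, Epyc was listed at 0 in both stroma libraries, and Kera and Optc were listed at 0 in the labelled knockout and were at 0.0282 and 0.0142 RPKM in the control. No other member of the versican family or of the link proteins that tie it to hyaluronan was kept, 0 of 7. Of the 11 hyaluronan genes listed by the tables, 5 were kept, none at least 2-fold apart, with a median of 0.01, and Tmem2, a surface hyaluronidase, Tnfaip6, which crosslinks hyaluronan, and Hmmr, a hyaluronan receptor, had ratios of 1.18, 1.09 and 1.01. The hyaluronan synthase Has2 was at 0.939 RPKM in the labelled knockout and 1.003 RPKM in the control.

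Of the kept enzymes that build the sugar chains, none was at least 2-fold apart in stroma with 1 RPKM added. Linker enzymes start chondroitin and dermatan sulfate chains. Of these enzymes, all 4 kept of 6 were above 0 with a median of 0.22, and none was at least 2-fold higher. B4galt7, which adds the first galactose, was at 1.39 RPKM in the labelled knockout and 0.721 RPKM in the control, B3gat3 at 1.78 and 1.37 RPKM and Xylt2 at 1.62 and 1.27 RPKM. Of 16 chondroitin and dermatan sulfate enzymes 7 were kept, with a median of 0.05. Below the minimum, and named after their values were seen, the sulfotransferase genes Chst13, at 0.793 RPKM in the labelled knockout and 0.0390 RPKM in the control, and Chst11, at 0.868 and 0.403 RPKM, had ratios of 20.4 (limits 6.56 and 206.8) and 2.15 (limits 1.69 and 2.74). The chain polymerases Chsy1 and Chpf had ratios of 1.42 (limits 1.30 and 1.56) and 1.601 (limits 1.32 and 1.96), and Csgalnact2, which starts chondroitin chains, 1.34 (limits 1.12 and 1.62). Of the keratan sulfate enzymes 2 of 6 were kept, B4galt1 and B4galt4, with ratios of 1.04 and 0.984 and a median of 0.01.

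Of the kept genes that act on or through these proteins, none was at least 2-fold apart on that scale. The versican-cleaving proteases had 5 of 7 kept, none at least 2-fold apart, with a median of 0.16. Adamts5 was at 1.66 RPKM in stroma labelled knockout and 0.967 RPKM in control, Adamts4 at 1.86 and 1.40 RPKM and the progesterone-induced Adamts1 at 6.96 and 6.12 RPKM. TGF-beta ligands, receptors and binding proteins, which decorin and biglycan bind, had 5 of 9 kept and a median of 0.15, with the latent TGF-beta binding genes Ltbp4 at 8.97 and 5.10 RPKM and Ltbp3 at 2.48 and 3.09 RPKM, and the receptor gene Tgfbr2 at 11.7 and 8.67 RPKM. Below the minimum, and named after their values were seen, Tgfb3 was at 1.30 RPKM in the labelled knockout and 0.638 RPKM in the control (ratio 2.04), Tgfb1 at 0.402 and 0.808 RPKM (ratio 0.497) and the protease gene Adamts8 at 0.158 and 0.0410 RPKM (ratio 3.85). Receptors through which free proteoglycans signal had 7 of 12 kept and a median of -0.03. Among them Egfr, the epidermal growth factor receptor, had a ratio of 1.25, Lrp1, which takes up decorin, 0.850, and the innate receptor Tlr4 0.782.

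**Figure D4:**
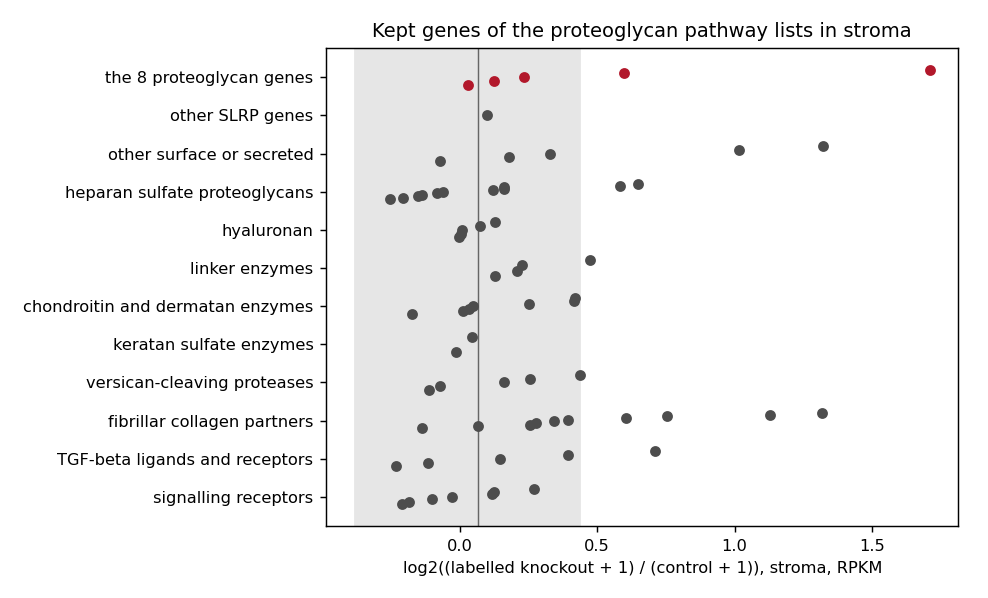
Log2 difference (labelled knockout against control, stroma, with 1 RPKM added) of each kept gene on the horizontal axis, by list. The 5 kept of the 8 proteoglycan genes are in red. The grey band spans the 5th to 95th percentile of all kept genes, -0.38 to 0.44, and the line is their median, 0.07. Ogn at 1.71 and Lum at 0.60 lie beyond the band, as do Col1a1, Col1a2, Smoc2 and Srgn among others.

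In luminal epithelium the same contrast was read from far fewer reads. All 8 were below 1 RPKM in the labelled knockout, and in the control Dcn alone was above it. Of these genes, 7 of the 8 had the lower RPKM in the labelled knockout and 1 the higher, against 39.3% and 60.7% of all genes above 0 in either library. For Dcn, Lum, Ogn and Vcan, 4 of the 8, counting limits left out equal levels on the lower side, against 11.0% of all genes, and for 0 of 8 on the higher side, against 15.1%. Dcn, the 1 gene kept at a mean of 1 RPKM, had a log2 difference of -0.68 and was not 2-fold lower on that scale. Of 7736 genes kept, 1.99% were at least 2-fold lower and 5.03% at least 2-fold higher.

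Lum was at 0.0227 RPKM in luminal epithelium labelled knockout, from 5 reads, and 0.514 RPKM in control, from 7 reads. At the control's level 106 reads would stand in the deeper labelled knockout library. Lum was 22.7-fold lower, with counting limits of 5.61 and 82.1. The authors' deposited table marks Lum as significant in luminal epithelium, with a p-value of 0.0021 and a q-value of 0.037, the only one of the 8 so marked. Of the 11176 genes the authors tested in luminal epithelium, 94 were so marked. They ran no test there for Fmod, Ogn, Aspn, Prelp and Vcan, 5 of the 8. With 1 library on each side, that p-value speaks of the libraries and not of genotypes.

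Dcn was at 0.554 RPKM in luminal epithelium labelled knockout and 1.49 RPKM in control, which is 2.69-fold lower (limits 1.49 and 4.88). Vcan was at 0.0385 and 0.196 RPKM, which is 5.09-fold lower (limits 1.76 and 11.9) on 21 and 7 reads, and Ogn at 0.0315 and 0.210 RPKM, on 7 and 3 reads, with limits of 0.0363 and 0.953 around a ratio of 0.150. Bgn was at 0.140 and 0.364 RPKM, and its limits of 0.151 and 1.31 reach 1. Fmod and Prelp were listed at 0 in the labelled knockout and rested on 1 read each in the control, at 0.0586 and 0.0448 RPKM, while Aspn was at 0.0241 RPKM in the labelled knockout and listed at 0 in the control. For those 3 no fold can be given. In the control the counting intervals of all neighbours in the order overlapped, whereas in the labelled knockout Dcn stood clear of Bgn and Bgn clear of Vcan.

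Markers of the stroma were lower in the same library. Stromal markers summed to 12.2 RPKM in luminal epithelium labelled knockout and 21.4 RPKM in control, with 6 of 7 kept genes below 0, and Tcf21 was listed at 0 in both. Smooth muscle markers summed to 1.11 and 6.07 RPKM, leukocyte markers to 12.9 and 29.6 RPKM and endothelial markers to 0.366 and 0.562 RPKM. Mesothelial markers summed to 0.0135 and 0.498 RPKM. At 0 in both libraries were Emcn, Cldn5, Lmod1, Upk3b, Spink3 and Prss29, in the labelled knockout also Fcer1g, Msln, Lrrn4 and Upk1b, and in the control also Kdr, Tek and Esam. Glandular markers summed to 5.92 and 1.19 RPKM and luminal epithelial markers to 226 and 148 RPKM. The part of stromal RNA in these proteoglycan values was not tested.

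Among pathway genes that were kept in luminal epithelium, Tsku was at 3.20 RPKM in the labelled knockout and 11.2 RPKM in the control, 3.49-fold lower. The hyaluronidase genes Hyal1, at 7.11 and 0.223 RPKM, and Hyal2, at 5.85 and 1.61 RPKM, were higher. Their ratios were 31.9, whose counting limits were 12.2 and 115, and 3.64. Of 3 kept hyaluronan genes 2 were at least 2-fold higher, against 5.03% of all kept genes. Hyal1 passed the minimum through its labelled knockout level. Col5a2, a collagen V chain, was higher, at 2.28 and 0.382 RPKM, while Col3a1, of collagen III, was lower, at 2.25 and 4.76 RPKM. Of 4 kept collagen genes 1 was at least 2-fold higher, against the same 5.03%. That gene, Col5a2, also passed the minimum through its labelled knockout level. Adamts9, a versican-cleaving protease and the 1 kept of that list, was at 2.14 and 0.605 RPKM. It likewise passed the minimum through its labelled knockout level.

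No gene of the other lists was at least 2-fold apart in luminal epithelium with 1 RPKM added, although some ratios passed 2. The dermatan sulfate epimerase gene Dse was at 4.78 RPKM in the labelled knockout and 2.30 RPKM in the control and the chondroitin sulfotransferase gene Chst11 at 1.58 and 2.33 RPKM, with a median log2 difference of 0.18 over 3 kept enzymes. The linker enzyme genes Fam20b and B3gat3 had ratios of 1.39 and 1.30, with a median of 0.36, and B4galt1, the 1 kept keratan sulfate gene, 1.16. The basement membrane gene Agrn was at 4.73 and 7.79 RPKM and Sdc4 at 27.5 and 35.3 RPKM, a median of -0.48 over the 2 kept. Srgn, the 1 kept of its list, was at 0.712 and 1.65 RPKM. Tgfbr2 and Tgfbr1 had ratios of 1.23 and 1.07, with a median of 0.16, and 6 receptor genes had a median of -0.21, among them Igf1r, the receptor for insulin-like growth factor, at 0.982 and 2.39 RPKM and Tlr2, an innate receptor, at 1.51 and 0.795 RPKM. Over all kept genes of this compartment the median was 0.10.

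The last comparison set stroma against luminal epithelium within each genotype. The tables were normalized separately, so these ratios set levels across them. All 8 genes had the higher RPKM in stroma in both genotypes, against 48.7% of all genes in the labelled knockout and 53.0% in the control. Limits left out equal levels for 8 of 8 in the labelled knockout, against 33.1% of all genes, and for 5 of 8 in the control, against 21.1%. With a pair mean of 1 RPKM or more, 5 of 5 kept genes were at least 2-fold higher in stroma in the labelled knockout, against 10.7% of kept genes, and 4 of 4 in the control, against 12.1%. None was at least 2-fold lower, against 20.7% and 19.6%. The genes kept had passed through their high stroma level, so these counts are given as a description.

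Dcn was 78.8 times as high in stroma as in luminal epithelium in the labelled knockout, with limits of 63.4 and 100.2, and 28.7 times in the control, with limits of 16.8 and 49.8. For Lum the ratio was 683, with limits of 274 and 1972, in the labelled knockout and 19.2, with limits of 9.61 and 49.6, in the control. For Vcan it was 179 and 29.2, for Bgn 60.8 and 21.2 and for Ogn 257 and 8.48. Counting intervals of the genotypes did not overlap for Dcn, Lum, Vcan and Ogn, and overlapped for Bgn. These limits do not hold the choice of scaling. Under the 3 other scalings the ratio of Dcn was 105 to 119 in the labelled knockout and 34.0 to 43.0 in the control. The ratios of Lum, Vcan, Bgn and Ogn were also higher under each of them. Aspn was 12.1 times as high in stroma in the labelled knockout. Fmod and Prelp, listed at 0 in luminal epithelium labelled knockout, were at least 56.85-fold and 38.0-fold higher in stroma, against the level of 3 reads in that library.

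Turned round, the level in luminal epithelium was a small percentage of that in stroma. Over the 5 proteoglycan genes of at least 1 RPKM in stroma the median was 0.559% in the labelled knockout, from 0.146% for Lum to 1.65% for Bgn, and 4.72% in the control, from 3.43% for Vcan to 11.8% for Ogn. Over the stromal markers, which share no gene with these 5, the median was 1.27% for 20 genes in the labelled knockout and 3.70% for 19 genes in the control. The medians of both lists were thus lower in the labelled knockout, and the difference between lists was not tested. Single stromal markers could run the other way, with Nr2f2 at 36.0% in the labelled knockout and 31.9% in the control and Hoxd10 at 1.77% and 1.504%.

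**Figure D5:**
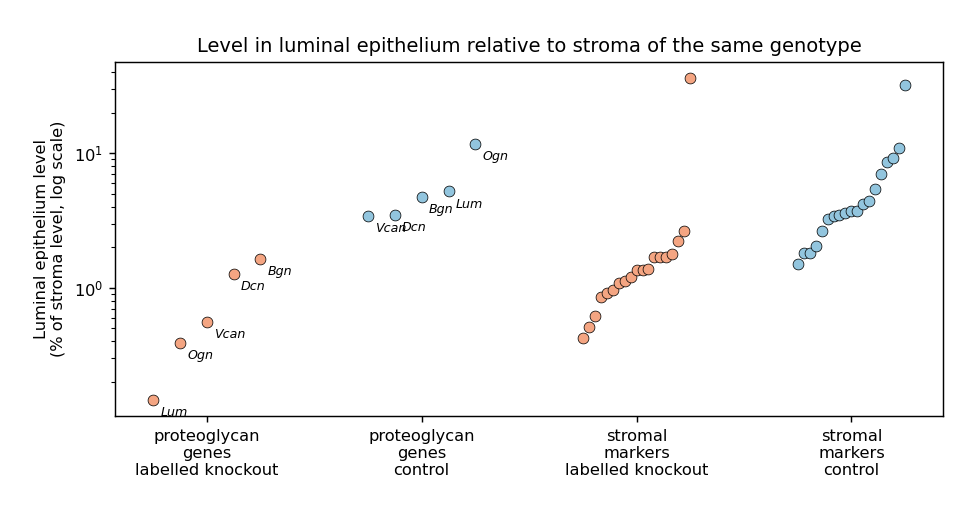
RPKM in luminal epithelium as a percentage of RPKM in stroma of the same genotype, on a log axis, for the proteoglycan genes and the stromal markers of at least 1 RPKM in stroma; each point is a gene, and Tcf21, at 0% in the labelled knockout, cannot be drawn. Proteoglycan points lie between 0.146% and 1.65% in the labelled knockout and between 3.43% and 11.8% in the control.

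Genes outside the set with the most similar profile were sought among 2769 named genes reaching 5 RPKM, by distance between log2 values centred over the 4 libraries. Nearest to the median profile of the 8 were Tmem119, Flnc, Itgb3, Rhob and Mmp23, at distances of 0.16 to 0.29. Tmem119 was at 6.95 RPKM in stroma labelled knockout, 3.27 RPKM in stroma control, 0.0493 RPKM in luminal epithelium labelled knockout and 0.251 RPKM in its control. The nearest single gene was Fn1, fibronectin, for Dcn, Igfbp6 for Lum, Timp2 for Bgn, Maf for Vcan and Atp8a1 for Ogn, the last at the largest distance, 0.32. For Fmod, Aspn and Prelp, whose low values give flat profiles on this scale, they were Syncrip, Ptk7 and Sh3bgrl. With a pseudocount of 0.1 RPKM 2 of the 5 were named again and 0 of the 8 nearest genes, so these names depend on the scale.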

How the data were processed

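The authors deposited 2 tables, 1 for each compartment. Their values are RPKM per the file headers, 1 column per library, beside the authors' own log2 fold change, test statistic (a score, not used), p-value and q-value for knockout against control. Tools named in the submitters' processing notes are Cufflinks 2.0.2, TopHat2 2.0.5, TopHat and CASAVA 1.8.2, with build mm9. Their settings, the annotation and whether counting used strand are not given in the sources used here. Per the labels' protocols, RNA was extracted with PicoPure and made into stranded total RNA libraries after ribosomal RNA depletion.

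Differences were log2((knockout + 1)/(control + 1)), which understates those of low genes, over genes with a pair mean of at least 1 RPKM. Higher and lower calls began at a log2 difference of 1. Ratios used no pseudocount. Depth was estimated by fitting the step at which low RPKM values, times transcript length less 200 bp, fell on whole reads. Lengths came from GENCODE transcripts of build GRCm38 matched by RefSeq identifier, known for 97.3% of genes. Between 64.2% and 65.9% of low values lay within 0.2 of a whole read, and the step was fitted to these values, so reads are estimates. Estimated depth was 6270000 to 91900000 reads, lowest in luminal epithelium control. Floors are 3 reads in a library. Reads copied by amplification are not independent molecules.

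Deposited starts were raised by 1, since 7152 of 20601 loci then had the annotated length, against 452 otherwise. The 8 genes, the 12 pathway lists, the marker lists and the rule for named genes (all 8; of each list the 3 kept genes with the largest difference in stroma and the 2 in luminal epithelium; Msx1 and Msx2; cluster neighbours; the most similar profiles) were chosen with earlier results of these data known. Has2, Cenpp, the collagen ratios and the marker genes singled out were named after their values were seen. 1 marker gene is not reported here by name. Data were simulated with 12 seeds over 21738 genes. Of 200 genes changed 4-fold, 100% were recovered in the stroma design and 99.0% to 100% in the luminal epithelium design. The changed genes were drawn from those of at least 5 RPKM in the labelled knockout library, with counting noise alone. All 8 proteoglycan genes were below that level in luminal epithelium, and Fmod, Prelp and Aspn also in stroma. The recovery does not speak for them there. Tools were scipy 1.17.1, pandas 2.3.3, numpy 2.4.6, matplotlib 3.10.9 and Python 3.11.15. Alternatives were other pseudocounts, scalings and minimums, and leaving out small RNA and unnamed models.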

Additional observations from a re-analysis of the deposited data

Results flagged for a closer look

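For 7 of the 8 genes the difference between labelled knockout and control had opposite signs in the compartments, with the labelled knockout higher in stroma and lower in luminal epithelium. The log2 difference in stroma minus that in luminal epithelium was 1.94 for Ogn, 1.17 for Lum, 0.71 for Dcn, 0.47 for Fmod, 0.44 for Vcan, 0.38 for Bgn and 0.21 for Prelp. They are listed because the single pair of libraries in each compartment differed in opposite directions. The contrast between compartments was not tested. In luminal epithelium the signs of Fmod and Prelp rest on 0 reads in the labelled knockout and 1 read in the control, and for Bgn the limits of the ratio, 0.151 and 1.31, also reach 1. The stromal marker sums moved the same way, at 826 RPKM in stroma labelled knockout and 507 RPKM in its control, and at 12.2 RPKM in luminal epithelium labelled knockout and 21.4 RPKM in its control. For Dcn the sign in stroma turned under the other scalings.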

How the results depend on the processing

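No paired analysis was possible because, between labelled knockout and control, each group held 1 library and the labels give no replicate numbers. For the same reason no library was left out. With 1 mouse described for each genotype, both compartments of a genotype would come from that mouse. The labels do not state this, and a fit of compartment over both genotypes was not run. The 8 genes had 32 differences in the 4 comparisons. Their signs kept under the 2 other pseudocounts and the 3 scalings, except that of Dcn in stroma, which turned under each scaling. Their sizes depended on the pseudocount and, between stroma and luminal epithelium, also on the scaling. For Dcn in the labelled knockout that log2 difference was 4.84 as deposited and 5.07 to 5.20 under the scalings. The log2 difference of Ogn in stroma was 0.95 with a pseudocount of 5 RPKM, which is under the 2-fold call. That of Dcn in luminal epithelium was -1.28 with a pseudocount of 0.1 RPKM, which passes it. Counting only genes whose limits leave out equal levels, a choice made after the data were seen, gave 5 of 8 higher in stroma than in luminal epithelium in the controls and 0 of 8 higher in luminal epithelium labelled knockout. By those limits 7 of 8 were higher in stroma labelled knockout as deposited, 4 when scaled by the upper quartile or the median and 5 by sums without the top 50, and in the controls 5 to 7 were higher in stroma than in luminal epithelium. Genes at least 2-fold higher in stroma than in luminal epithelium numbered 890 in the labelled knockout, 235 with a minimum of 5 RPKM and 314 with a pseudocount of 5 RPKM, and 973 in the controls, 291 and 359 under those settings and 1495 when scaled by the median. In luminal epithelium, labelled knockout against control, 389 were higher and 154 lower. A minimum of 5 RPKM gave 204 and 62, a pseudocount of 0.1 RPKM 640 and 279, and a pseudocount of 5 RPKM 194 and 50, and without small RNA and unnamed models 258 were higher. In stroma 112 were higher, and 34 without those models. Of pathway genes in luminal epithelium, 3 were at least 2-fold higher and 1 lower, against 5 and 5 with a pseudocount of 0.1 RPKM, 1 and 0 with 5 RPKM, and 0 higher with a minimum of 5 RPKM. Of those in stroma, 4 were higher, and 2 with a pseudocount of 5 RPKM. Of the 5 genes most like the set, 2 were named again with a pseudocount of 0.1 RPKM. Scaling by sums without the 50 most abundant genes moved the median of luminal epithelium differences by -0.18 and gave a share of higher calls of 58.8%, against 71.6% as deposited. Between stroma and luminal epithelium the scalings moved the median by 0.31 to 0.44 in the labelled knockout and 0.18 to 0.44 in the controls, with higher calls at 49.4% to 55.9% against 34.0% as deposited and at 48.4% to 61.0% against 38.2%. The cause of these shifts was not tested. Depth limits luminal epithelium control, where 1 read on 1 kb of effective transcript is worth 0.160 RPKM.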
